A study of Homo sapiens with 2 samples.

Results

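The p53 and RB pathway genes described here are 9 of the 59026 genes measured in HEK293 cells, and they have 100 of the 206696 listed transcripts. They are MDM2, MDM4, CDKN1A, CDKN2A, RB1, RBL1, E2F1, CCNE1 and CCNE2. Members were found by their gene names in the GENCODE v44 annotation, every transcript of a member was taken by its identifier without the version, and transcripts were summed per gene in each library. Of the 100 transcripts, 63 were above 0 in each library.

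The study is about an RNA methyltransferase of mitochondrial tRNAs, and the RNA sequencing analysed here was done on untreated HEK293 Flp-In T-Rex cells, a derivative of the human embryonic kidney line HEK293 with a site for inserting transgenes and a tetracycline repressor. Total RNA depleted of ribosomal RNA was sequenced in 2 libraries, replicate 1 and replicate 2, which form 1 group, so no condition was compared. The libraries held 25158962 and 27143860 estimated counts, of which 14169 and 15846 lay on the members (0.0563% and 0.0584%). Nothing in the labels says that the replicates were separate cultures, so the spread between them may be technical.

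The p53 and RB pathways are the main brakes on division and survival in human cells. MDM2 and MDM4 hold the transcription factor p53 in check, the ARF product of CDKN2A restrains MDM2, and p53 in turn switches on CDKN1A, which encodes the kinase inhibitor p21. In the other arm, RB1 and its relative RBL1 bind E2F factors, and cyclin E, encoded by CCNE1 and CCNE2, drives the kinase CDK2 that releases them. HEK293 cells were made with adenovirus DNA, whose E1A and E1B proteins are known to bind the RB family and p53, respectively.

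All 9 genes were measured well above 0, and CDKN2A had the highest level per length. The scale used to compare genes is the length-normalised level, in which the estimated count of each transcript is divided by its GENCODE length and scaled so that the matched transcripts of a library sum to 1000000. CDKN2A stood at 93.4 and 131.1 in replicates 1 and 2 (mean 112.3 ± 26.7, SD, n = 2), above 97.5% of protein-coding genes. MDM2 followed at 60.2 and 47.2 (53.7 ± 9.20) and stood above 93.7% of them. MDM2 acts on p53, and of CDKN2A the ARF product does so through MDM2. Transcripts that start in or upstream of exon 1 beta, chiefly the ARF transcripts CDKN2A-210 and CDKN2A-214, held 43.6% and 37.4% of the CDKN2A level. Those with the exon 1 alpha start of p16INK4a held 15.3% and 11.2%, and those starting in exon 2 or later 41.1% and 51.4%. Over all transcripts neither gene overlapped with any of the other 7 genes between the libraries. The place of MDM2 did not hold with protein-coding transcripts only, where its mean was 19.8, below those of E2F1 (29.4), CDKN1A (24.4) and CCNE1 (21.4), while CDKN2A was still highest at 109.1.

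A middle group of 4 genes lay close together on this scale. The transcription factor E2F1 had 26.9 and 31.9 (29.4 ± 3.52), and CDKN1A had 24.2 and 28.7 (26.5 ± 3.21). MDM4 had 23.6 and 26.9 (25.2 ± 2.34), and CCNE1 had 25.4 and 22.4 (23.9 ± 2.11). The order of these 4 was not resolved, since no pair among them differed by more than the sum of its SDs. The pocket proteins came next, with RB1 at 11.4 and 10.5 (10.96 ± 0.699) and RBL1 at 11.5 and 8.76 (10.1 ± 1.96). CCNE2 was lowest at 6.54 and 6.16 (6.35 ± 0.269), still above 57.3% of protein-coding genes.

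**Figure D1:**
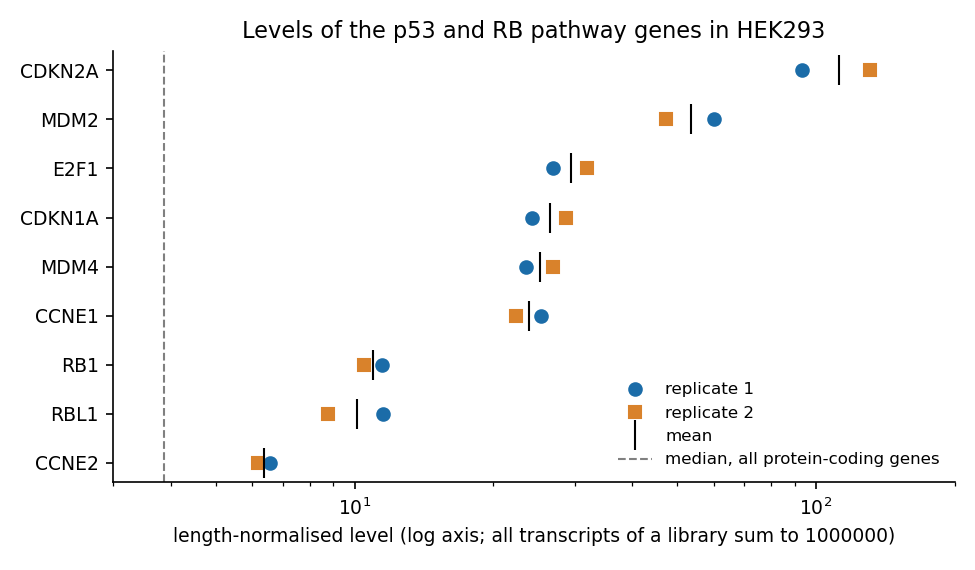
Length-normalised level (log axis) of each of the 9 genes in replicate 1 (circles) and replicate 2 (squares), with the mean as a vertical tick and the median of all protein-coding genes (3.86) as a dashed line. Over all transcripts CDKN2A and MDM2 lie to the right of the other genes (MDM2 at a mean of 19.8 with protein-coding transcripts only would not), and CCNE2 is the lowest at a mean of 6.35.

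An order between 2 genes was counted as beyond the spread where it was the same in both libraries and the means differed by more than the sum of the SDs. This held for 29 of the 36 pairs. The other 7 were the 6 pairs within the middle group and the pair of RB1 and RBL1, and in 3 of these (MDM4 and CCNE1, CDKN1A and CCNE1, RB1 and RBL1) the order differed between the libraries. With 2 libraries no permutation test can pass a threshold, so no p-value is given.

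Of the pairs set side by side here, all but RB1 and RBL1 differed in level beyond the spread. The mean of CDKN2A over all its transcripts exceeded that of CDKN1A by 2.08 on the log2 scale (1.95 and 2.19 by library). Its p16INK4a transcript CDKN2A-201, at 13.8 and 12.0, lay below CDKN1A at 24.2 and 28.7. The mean of E2F1 exceeded that of RB1 by 1.42 (1.23 and 1.61). CCNE1 exceeded its paralogue CCNE2 by 1.91 (1.96 and 1.86). RB1 and RBL1 were indistinguishable, with a log2 ratio of RBL1 to RB1 of -0.11 and values of 0.01 and -0.26 by library.

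The order of MDM2 and MDM4 also rested on how transcripts were weighted. MDM2 exceeded MDM4 by 1.09 on the log2 scale of length-normalised levels (1.35 and 0.81 by library). In the authors' normalised counts, which are not divided by length, MDM2 had 2904.1 and 2425.1 and MDM4 had 2930.0 and 2800.5, a log2 ratio of the means of -0.10. When the length-normalised level took in protein-coding transcripts only, the means were 19.8 for MDM2 and 19.03 for MDM4, a log2 ratio of 0.06 that was within the spread. Transcripts of types other than protein-coding, most of them short, carried much of the MDM2 level, since protein-coding transcripts made up 69.7% ± 5.77 of its counts and 36.2% ± 7.83 of its length-normalised level.

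Summed per gene, the libraries were close. On the normalised scale with a pseudocount of 1, the log2 difference of replicate 2 minus replicate 1 ran from -0.57 for CCNE2 (313.3 and 211.0 normalised counts) to 0.37 for CDKN2A (2070.1 and 2677.4). None of the 9 genes differed by more than 2-fold, against 5.23% of all 19110 genes whose normalised counts averaged 10 or more. The transcripts were less even. Of the 55 member transcripts whose normalised counts averaged 10 or more, 21 differed by more than 2-fold between the libraries, against 29.6% of all 67167 such transcripts. Of the 8 members with several transcripts, 4 (MDM2, CDKN1A, CDKN2A and RBL1) had the same leading transcript by count in both libraries, against 78.5% of 16735 genes.

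**Figure D2:**
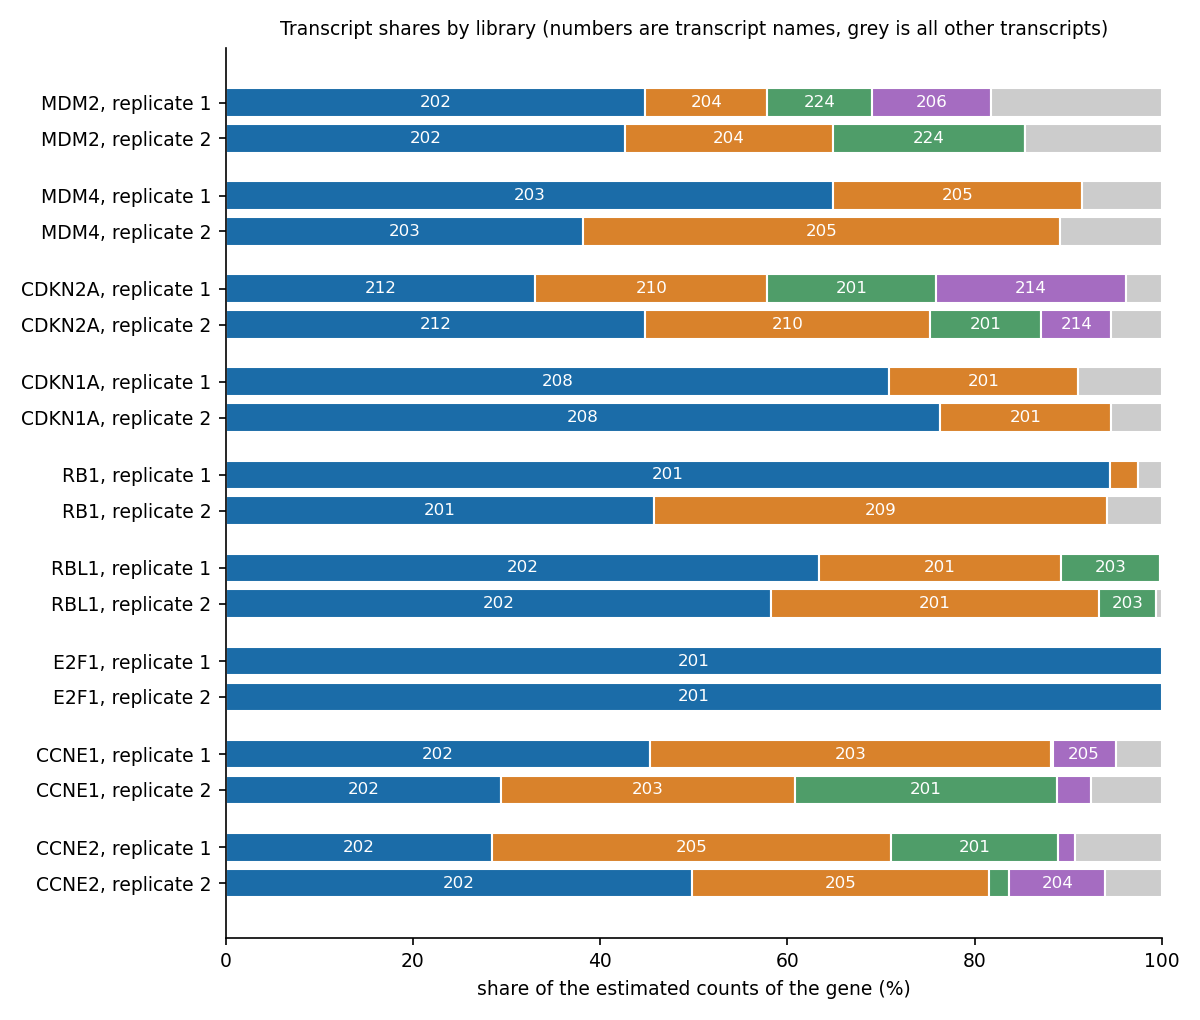
Share of each gene's estimated counts (%) on its transcripts in replicate 1 and replicate 2. Coloured segments are transcripts whose mean share reached 5%, labelled by the number in their name, and grey is the sum of the others. RB1, MDM4, CCNE1 and CCNE2 change their leading transcript between the libraries, and E2F1 has only 1 transcript.

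Shares of transcripts are given below as percentages of a gene's estimated counts, with exact Clopper-Pearson 95% intervals. These intervals cover counting error only, and not the division of reads among transcripts that share most of their sequence, which the estimating program makes. Of the 25 member transcripts whose mean share reached 5% in a gene with several transcripts, 21 had intervals that did not overlap between the libraries, against 51.1% of 32944 such transcripts over all genes with at least 100 normalised counts in both libraries.

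**Figure D3:**
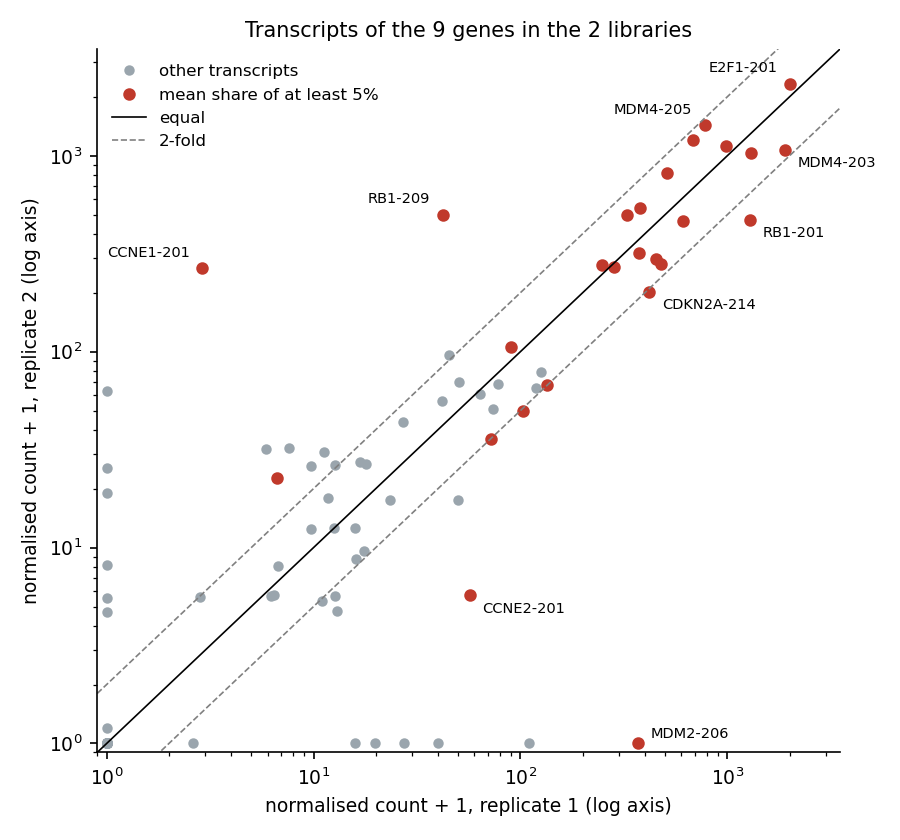
Normalised count plus 1 of each transcript of the 9 genes in replicate 1 (x) and replicate 2 (y), both on log axes, with transcripts whose mean share reached 5% in red, the line of equality and dashed lines at a 2-fold difference. RB1-209 and CCNE1-201 lie far above the upper dashed line, and MDM2-206 lies on the axis since it is listed at 0 in replicate 2.

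MDM2 encodes the ubiquitin ligase that marks p53 for degradation (chr12:68808177-68845544, GRCh38, plus strand). Of its 33 listed transcripts, 16 were at 0 in both libraries and 5 in 1 of them. The full-length transcript MDM2-202, with 497 codons, held 44.8% (42.9 to 46.7) of the counts in replicate 1 and 42.6% (40.7 to 44.6) in replicate 2. It led in both libraries by counts, but as the longest of these models (7490 bases) it held 10.4% and 10.7% of the length-normalised level, where MDM2-206 led in replicate 1 and MDM2-204 in replicate 2. MDM2-204, annotated for nonsense-mediated decay, held 13.1% and 22.2%. MDM2-224, with 491 codons, held 11.2% and 20.6%. MDM2-206 held 12.7% in replicate 1 and was listed at 0 in replicate 2, where a count of 0 allows up to 0.115%.

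MDM2 has an outer promoter before exon 1 and an internal one in intron 1, and the internal promoter is known to respond to p53. Transcripts that start in exon 1 (chr12:68808177-68808491) held 60.7% (58.8 to 62.5) and 68.4% (66.6 to 70.2) of the counts. Transcripts that start in intron 1, chiefly MDM2-224 with its first exon at chr12:68809002-68809086, held 13.7% (12.4 to 15.0) and 21.9% (20.3 to 23.6). Exon 1 starts thus made up the larger part of the counts in both libraries. Of the length-normalised level they held 28.2% and 46.7%, and transcripts that begin after exon 2, with models of 251 to 649 bases, held 42.5% and 33.4%. In counts, a further 13.7% and 1.04% lay on transcripts whose annotated model begins inside exon 2, so that their promoter is not given, and 11.9% and 8.59% on transcripts that begin after exon 2. Adding the exon 2 models to the internal class changed its mean share from 17.8% to 25.2%.

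MDM2 exons also share 439 bases with a processed pseudogene on the same strand, ENSG00000256664, which was listed at 276.7 and 227.8 normalised counts, and 785 bases with an antisense lncRNA, ENSG00000257181, at 326.5 and 263.8. Their part in the MDM2 counts was not tested, and whether the counting used the strand is not given in the sources used here.

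MDM4 is the relative of MDM2 that binds p53 and blocks its activity without being an efficient ligase by itself (chr1:204516379-204558120, GRCh38, plus strand). Its pre-mRNA is known to be spliced either with exon 6, giving full-length MDM4, or without it, giving MDM4-S, a short protein with little more than the p53-binding domain. The exon lies at chr1:204537430-204537497 and is 68 bases long, which is not a multiple of the codon length, so that its loss shifts the reading frame. The stretches below, read from the GENCODE v44 transcripts, show the end of exon 5 and the start of exon 7 in lower case and exon 6 in capitals.
MDM4-203: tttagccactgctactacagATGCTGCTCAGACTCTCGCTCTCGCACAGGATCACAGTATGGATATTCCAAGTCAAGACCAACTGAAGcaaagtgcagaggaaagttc
MDM4-205: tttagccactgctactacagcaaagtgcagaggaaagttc

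The transcript with exon 6, MDM4-203 with 490 codons, held 64.9% (63.1 to 66.7) of MDM4 counts in replicate 1 and 38.2% (36.4 to 39.9) in replicate 2. The transcript without it, MDM4-205 with 140 codons, held 26.6% (25.01 to 28.3) and 51.0% (49.2 to 52.8). The 2 transcripts changed places while the gene total hardly moved, at a log2 difference of -0.07. Among transcripts that could be classed by the exon, the share without exon 6 was 29.1% (27.4 to 30.9) and 57.2% (55.3 to 59.1). The mean of 43.2% ± 19.9 (SD, n = 2) therefore describes neither library. The reads that can tell these transcripts apart are few. Of the 10001 stretches of 50 bases in MDM4-203, 116 are absent from MDM4-205, and 74 of 9959 the other way. Up to 121 stretches of 50 bases in an MDM4 transcript occur in another gene, and up to 111 lie antisense to one. Their part in the counts was not tested.

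CDKN2A encodes 2 unrelated tumour suppressors from 1 locus (chr9:21967752-21995301, GRCh38, minus strand). p16INK4a, an inhibitor of CDK4 and CDK6, starts in exon 1 alpha (chr9:21974678-21974857), and p14ARF, an inhibitor of MDM2, starts in exon 1 beta (chr9:21994139-21994411). Both first exons are joined to the same exon 2 (chr9:21970902-21971208), which is read in different frames.

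Transcripts of the beta start outnumbered those of the alpha start in counts. Transcripts starting in or upstream of exon 1 beta held 47.0% (44.8 to 49.2) of CDKN2A counts in replicate 1 and 39.7% (37.9 to 41.5) in replicate 2. Transcripts starting in exon 1 alpha held 18.6% (16.9 to 20.4) and 14.2% (12.9 to 15.5). Counted only against each other, the alpha start held 28.4% (25.9 to 30.9) and 26.4% (24.2 to 28.6), and these intervals overlap between the libraries. In normalised counts the alpha transcripts came to 385.4 and 380.6 and the beta transcripts to 972.3 and 1062.1.

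The remainder could not be given to either product. CDKN2A-212, the leading transcript with 33.1% (31.0 to 35.2) and 44.8% (43.0 to 46.6), begins in a longer form of exon 2 that adds 124 bases of the intron before it, and its reading frame has 105 codons. With 4 further models it made up a class that starts in exon 2 or later, at 34.4% and 46.1%. Within the beta class, CDKN2A-210 held 24.8% and 30.4% and CDKN2A-214 held 20.2% and 7.50%, and both encode the same 132 codons. Within the alpha class, CDKN2A-201, the p16INK4a transcript of 156 codons, held 18.1% and 11.9%. CDKN2A exons share 593 bases with the antisense lncRNA CDKN2B-AS1, listed at 175.2 and 138.3 normalised counts, and 31 stretches of 50 bases with another gene. The part of these in the counts was not tested.

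CDKN1A encodes p21, the cyclin-dependent kinase inhibitor that is a classic p53 target (chr6:36676460-36687337, GRCh38, plus strand). Its transcripts start at an upstream first exon (chr6:36676460-36676524, CDKN1A-208) or 2254 bases further downstream (chr6:36678714-36678798, CDKN1A-201), and the main ones encode the same 164 codons. The upstream start held 71.2% (68.7 to 73.7) of the counts in replicate 1 and 76.7% (74.6 to 78.8) in replicate 2, and CDKN1A-208 alone held 70.8% and 76.3%. CDKN1A-201 held 20.2% (18.1 to 22.5) and 18.4% (16.5 to 20.4). The upstream start led in both libraries. CDKN1A-203, also with the downstream start, held 7.81% in replicate 1 and was listed at 0 in replicate 2, where the limit is 0.189%.

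RB1 encodes the retinoblastoma protein, which holds E2F factors inactive (chr13:48303744-48599436, GRCh38, plus strand). Its counts lay on different models in the 2 libraries. RB1-201, with 928 codons, held 94.5% (93.1 to 95.7) in replicate 1 and 45.7% (42.7 to 48.7) in replicate 2. RB1-209, with 923 codons, held 3.005% (2.16 to 4.11) and 48.5% (45.5 to 51.5). In normalised counts RB1-201 had 1291.0 and 470.5 and RB1-209 had 41.0 and 499.1, while the gene total differed by -0.41 on the log2 scale. In percentage points of share, the move of RB1-201 was the largest among the transcripts of the 9 genes whose mean share reached 5%.

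The models differ at their last exon. That of RB1-209 (chr13:48479979-48481728) begins 19 bases before that of RB1-201 (chr13:48479998-48481890) and ends 162 bases before it. The junction with the exon before is shown with the 19 added bases in capitals.
RB1-201: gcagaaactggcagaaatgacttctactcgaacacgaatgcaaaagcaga
RB1-209: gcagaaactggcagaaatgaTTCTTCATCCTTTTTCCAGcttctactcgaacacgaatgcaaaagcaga
Of the 4719 stretches of 50 bases in RB1-201, 211 are absent from RB1-209, and 72 of 4580 the other way. RB1 was otherwise free of shared sequence, with no stretch of 50 bases in another gene.

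RBL1 encodes p107, a pocket protein that binds E2F4 and E2F5 and is itself an E2F target (chr20:36996349-37095997, GRCh38, minus strand). RBL1-202, with 1068 codons, led in both libraries by counts at 63.4% (60.1 to 66.5) and 58.3% (54.8 to 61.5). RBL1-201, with 1014 codons and another 3′ end, held 25.8% (23.0 to 28.8) and 35.0% (31.8 to 38.3). RBL1-203, an incomplete model of 763 bases, held 10.6% and 6.14%, but 41.6% and 26.7% of the length-normalised level. The RBL1 level thus leans on a short model more than its counts do.

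E2F1 encodes the activating E2F factor that turns on genes of S phase and is restrained by RB1 (chr20:33675477-33686385, GRCh38, minus strand). It has 1 listed transcript, E2F1-201 with 437 codons, at 2006.1 and 2334.0 normalised counts. None of its 2641 stretches of 50 bases occurs in another listed transcript, so that its count does not depend on how reads are divided among transcripts. Its difference between the libraries was 0.22 on the log2 scale.

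The 250 bases before the starts of E2F1 and RBL1 are shown because each window holds 2 E2F words. The words searched on both strands were TTTCCCGC, TTTCGCGC, TTTGCCGC and TTTGGCGC, and the matches, in capitals, do not overlap one another. Both windows are read 5′ to 3′ on the minus strand of GRCh38.
E2F1-201 (chr20:33686386-33686635): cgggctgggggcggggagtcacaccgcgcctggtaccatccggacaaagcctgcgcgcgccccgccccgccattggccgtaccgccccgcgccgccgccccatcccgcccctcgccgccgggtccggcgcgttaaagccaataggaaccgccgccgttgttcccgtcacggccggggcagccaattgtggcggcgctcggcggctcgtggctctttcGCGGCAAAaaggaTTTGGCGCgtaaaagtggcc
RBL1-202 (chr20:37095998-37096247): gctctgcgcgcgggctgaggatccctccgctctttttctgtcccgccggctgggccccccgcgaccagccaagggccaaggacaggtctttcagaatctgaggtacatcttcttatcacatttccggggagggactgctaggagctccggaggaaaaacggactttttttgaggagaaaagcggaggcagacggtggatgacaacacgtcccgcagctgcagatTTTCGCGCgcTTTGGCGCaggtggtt
The matches begin 33 and 20 bases before the start of E2F1-201 and 26 and 16 bases before that of RBL1-202. RB1-201 held 1 word 25 bases before its start and MDM2-202 held 1 at 237 bases. In all, 4 of the 13 windows of this length before the main starts of the 9 genes held an E2F word, and 2.79% of 35116 promoter windows in RefSeq did. The same windows were searched for a p53 half-site, a part of the p53 binding motif. Of the 13 windows 1 held it, and 5.57% of the 35116 did. A match is a run of letters and was not measured as bound. No word was found in the windows of CCNE1 and CCNE2, which says only that these letters were absent there.

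CCNE1 encodes cyclin E1 (chr19:29811991-29824312, GRCh38, plus strand). CCNE1-202 and CCNE1-203, with 350 and 395 codons, held 45.4% (42.2 to 48.5) and 42.8% (39.7 to 46.0) in replicate 1 and 29.5% (26.7 to 32.3) and 31.3% (28.5 to 34.2) in replicate 2. CCNE1-201, the full-length transcript of 410 codons, held 0.180% (0.0244 to 0.724) in replicate 1 and 28.0% (25.3 to 30.9) in replicate 2. Its normalised counts were 1.89 and 266.8, so that in replicate 1 it lay below the 3 counts taken as the limit. CCNE1-202 lacks an exon of 135 bases (chr19:29821996-29822130), a whole number of codons. CCNE1-205, an incomplete model of 215 codons, held 6.77% (5.26 to 8.47) and 3.65% (2.55 to 4.94). Among transcripts that could be classed by the exon, the share without it as a separate exon was 53.4% (50.1 to 56.6) and 37.2% (34.2 to 40.4). This class also counts CCNE1-204, a retained-intron model with 3.89% and 5.76% of CCNE1 counts. Its first exon (chr19:29821732-29822130) covers the 135 bases, so the share that lacks these bases is lower than the class share.

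CCNE2 encodes cyclin E2, the lower of the pair, on chromosome 8. CCNE2-205, with 404 codons, held 42.7% (36.9 to 48.4) and 31.7% (25.6 to 38.04), and these intervals overlap. CCNE2-202, with 374 codons, held 28.4% (23.3 to 33.9) and 49.8% (42.9 to 56.2). CCNE2-201, which encodes the same 404 codons, held 17.8% (13.7 to 22.8) and 2.23% (0.716 to 5.04). CCNE2-204, annotated for nonsense-mediated decay, held 1.81% (0.551 to 3.90) and 10.2% (6.503 to 14.7). Together the 404-codon transcripts went from 60.5% to 33.9%. CCNE2 rested on the fewest reads of the 9 genes, 296.1 and 227.5 estimated counts, and its exons share 1629 bases with INTS8 on the opposite strand, which was listed at 1096.7 and 836.8 normalised counts. The part of INTS8 reads in the CCNE2 counts was not tested.

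**Figure D4:**
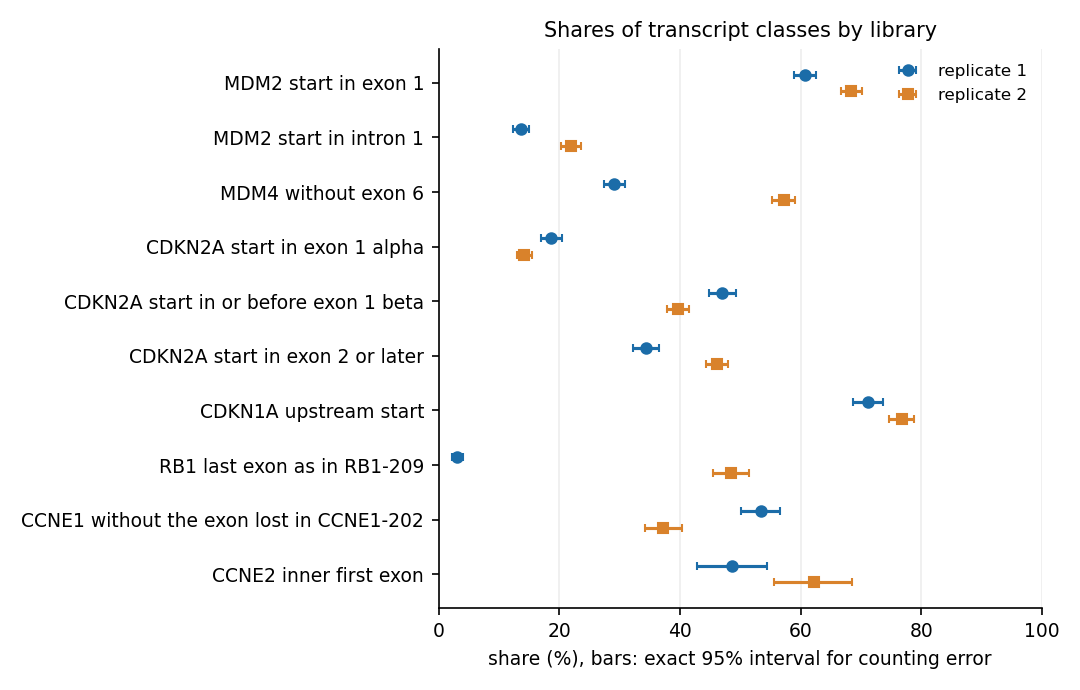
Shares (%) of transcript classes, defined by first exon or by an exon kept or lost, in replicate 1 (circles) and replicate 2 (squares), with exact 95% intervals for counting error. The share of RB1 with the last exon of RB1-209 (3.005% and 48.5%) and of MDM4 without exon 6 (29.1% and 57.2%) differ most between the libraries. The CCNE1 class without the exon also counts CCNE1-204, whose first exon covers those bases.

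The classes of CDKN1A, CCNE1, CCNE2 and RB1, and the alpha share counted against alpha and beta alone, were chosen after the values were seen. Leaving out transcripts listed in another version than that of GENCODE v44 removes MDM2-202, MDM4-203, CDKN2A-201, CDKN2A-214 and CDKN1A-201, among others. The mean shares then became 31.5% for the intron 1 start of MDM2 and 100% for MDM4 without exon 6. They were 1.89% for the alpha start of CDKN2A and 91.7% for the upstream start of CDKN1A. Every fold and share above compares 2 libraries of untreated cells, so a difference between them is a spread and not a response.

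The wider pathways were measured in the same libraries, and every gene of each list reached a length-normalised level of at least 1 in both, against 60.3% of 19885 protein-coding genes, whose median was 3.86. Among the 11985 protein-coding genes that reached this level the median was 11.8. The lists hold well-known genes and several of the members, and they were chosen with earlier results known.

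Of 9 p53 regulators, the highest were CDKN2A and MDM2, given above, and the deubiquitinase USP7 at a level of 47.9 ± 3.82. CDKN2A is counted there over all its transcripts, and not over those with the ARF start alone. The lowest were the ligase gene RCHY1 at 8.58 ± 1.35 and the kinase gene HIPK2 at 8.04 ± 1.63. The median of the list was 18.7, so MDM4 at 25.2 lay above it. Among 25 p53 target genes the median was 13.9. PMAIP1, which encodes the pro-apoptotic protein NOXA, was highest at 206.1 ± 47.8, followed by CCNG1 at 79.8 ± 16.3 and the death receptor gene TNFRSF10B at 66.8 ± 2.63. The lowest were TIGAR at 1.99 ± 0.0166 and TP53INP1 at 1.33 ± 0.102. MDM2 and CDKN1A stood at 53.7 and 26.5 in this list, both above its median.

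The pocket protein RBL2 (p130) had a level of 37.0 ± 3.86, above RB1 and RBL1 in both libraries. The 10 E2F and DP factors had a median of 14.2, and E2F1 was the third highest after the dimerisation partners TFDP1 at 111.8 ± 4.53 and TFDP2 at 31.1 ± 3.87. E2F6 at 7.65 ± 0.488 and E2F8 at 4.15 ± 0.284 were lowest. E2F1 and TFDP2 did not differ beyond their spread, since the order of their values differed between the libraries.

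The 22 E2F target genes had the highest median of the lists, 41.4. PCNA, the sliding clamp of DNA replication, stood at 202.9 ± 43.6, and the helicase genes MCM7 and MCM3 at 167.3 ± 5.51 and 166.5 ± 9.15. At the other end were RBL1 and CCNE2, and E2F1 and CCNE1 also lay below the median. All 4 members of this list were thus in its lower part.

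Among 7 inhibitors of cyclin-dependent kinases, CDKN2A, CDKN1B at 39.9 ± 0.310 and CDKN1A were highest. CDKN1C at 4.76 ± 1.33 and CDKN2D at 3.56 ± 0.0938 were lowest, with a median of 20.2. CDKN2A is again counted over all its transcripts, and those with the exon 1 alpha start of p16INK4a held 15.3% and 11.2% of its level. The p16INK4a transcript CDKN2A-201 stood at 13.8 and 12.0 by library. Among 9 cyclins and kinases of G1 and S phase, CCND2 led at 85.9 ± 4.28, with CDK4 at 78.5 ± 2.24 and CDK2, the partner of cyclin E, at 48.5 ± 0.425. CCNE1 at 23.9 was the median of this list, and CDK6 at 12.4 ± 0.3998 and CCNE2 were lowest.

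**Figure D5:**
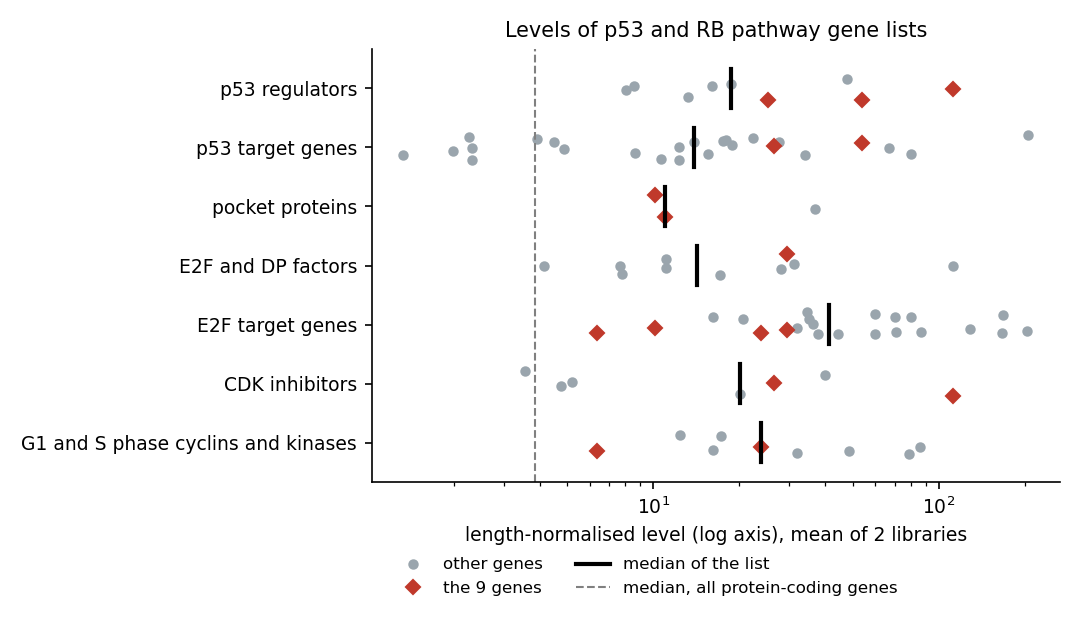
Mean length-normalised level over the 2 libraries (log axis) of the genes in 7 pathway lists, with the 9 genes as red diamonds, the other genes as grey points, the median of each list as a black bar and the median of all protein-coding genes (3.86) as a dashed line. The E2F target list has the highest median (41.4), with its 4 red diamonds to the left of it.

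As a check of the cell line, VIM stood at 306.9, NEFL at 22.3, INA at 4.201 and LHX1 at 1.94, while PAX2 at 0.694 and NEFM at 0.281 were below 1. Of 6 markers of other cells, PTPRC, CD3E, ALB and DCN were listed at 0 in both libraries, PECAM1 stood at 0.00530 and COL1A1 at 4.86.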

How the data were processed

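RNA of HEK293 cells was sequenced by the authors after depletion of ribosomal RNA in 2 libraries (TruSeq). The submitters' processing notes name FastQC, STAR 2.7.0d, RSEM 1.3.3 and R 3.6.3, and the study's methods name GRCh38. The sources used here do not give the strand setting of the counting. The deposited tables list, per transcript, the estimated count from RSEM and a normalised signal, the count divided by an EB-Seq size factor (0.945 and 1.08), as tested on the files. Short tables of METTL8 transcripts were not used. Transcripts were matched without version to GENCODE v44 (202217 of 206696; 83 of the 100 member transcripts in the same version), so lengths are those of v44. Most full-length transcripts, E2F1-201 and RB1-201 among them, were in another version.

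The members and gene lists were chosen with earlier results of these data known. Named are the 9 members, those of their transcripts whose mean share reached 5%, and the 3 highest and 2 lowest genes of each list. Transcripts outside this rule (CDKN1A-203) and overlapping genes were named after their values were seen. Shares have exact 95% intervals from scipy 1.17.1. Folds used a pseudocount of 1 and genes whose normalised counts averaged 10 or more. Fold and leader calls were tested on simulated data. E2F words and p53 half-sites were searched in 250 bases before each start. Sequences of CDKN1A and CDKN2A are not reported here. Alternatives included TMM factors from edgeR 4.0.16 (R 4.3.3), with estimated counts rounded. Code ran in Python 3.11.15 with numpy 2.4.6 and pandas 2.3.3.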

Additional observations from a re-analysis of the deposited data

How the results depend on the processing

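No paired analysis was possible because the 2 libraries form 1 group. An order between genes cannot be called with 1 library left, so the count of 29 pairs has no value there. It was 22 to 29 under the other settings. The 22 came with the same transcript version only, where E2F1 has no value and its pairs drop out, so it is not out of 36. The log2 ratio of MDM2 to MDM4 was 1.09. It turned to -0.10 in counts not divided by length, was 0.058 with protein-coding transcripts only, and ran from 0.81 to 1.35 with 1 library left out. The log2 ratio of RBL1 to RB1, -0.11 and within the spread, was 0.12 with protein-coding transcripts only, 0.66 with transcripts of the same version only, and -0.26 to 0.0086 with 1 library left out. With 1 library left out the other ratios ran from 1.86 to 1.96 (CCNE1 to CCNE2), 1.95 to 2.19 (CDKN2A to CDKN1A) and 1.23 to 1.61 (E2F1 to RB1), and kept their sign and call under every other setting that gave a value.

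The share of the alpha start of CDKN2A, 16.4%, was 13.3% in length-normalised values, 1.89% with the same version only and 27.4% against alpha and beta alone (added after the data were seen). The share of the internal start of MDM2, 17.8%, was 31.5% with the same version only and 25.2% with the starts inside exon 2 (added likewise). The share of MDM4 without exon 6, 43.2%, was 100% with the same version only, because MDM4-203 then drops out. With 1 library left out these shares ran from 14.2% to 18.6%, 13.7% to 21.9% and 29.1% to 57.2%. By construction, the values of 1 library lie within 1 SD of the mean of 2. E2F1 has no value with the same version only. The number of genes with the same leading transcript was 3 by length-normalised values and 4 otherwise. No member gene differed over 2-fold under any scaling, pseudocount or filter, while the transcript count went from 18 to 31. Depth limits CCNE2 most, and shares of transcripts that differ in few bases are limited by how reads were divided among them, which the files do not let one redo.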
